A study of Mus musculus with 15 samples.

Results

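Death receptors are membrane proteins of the tumour necrosis factor (TNF) receptor superfamily that carry signals from death ligands into the cell. This report covers 9 genes of that pathway, chosen by symbol, out of 19069 genes in the RNA count files. They are the death receptor genes Fas, Tnfrsf10b and Tnfrsf1a, the related receptor gene Tnfrsf12a, the adaptor genes Fadd, Tradd and Traf2, the adaptor kinase gene Ripk1 and the inhibitor gene Cflar. All 9 symbols were present in the RNA files and in the FAIRE and H3K27ac promoter tables, which hold 21881 promoters each.

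A ligand-bound death receptor uses its intracellular death domain to bind an adaptor with the same domain. FADD then recruits caspase-8, and the caspase-8-like protein cFLIP, encoded by Cflar, limits its activation. TNF receptor 1 instead first binds TRADD, RIPK1 and TRAF2, a platform from which either NF-kB signalling or cell death can follow. In ultraviolet-irradiated skin and cultured cells, death receptors are known as one of several routes to apoptosis.

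The cells were NIH3T3, an established mouse fibroblast line, with no genetic change named in the labels. Untreated cells were compared with cells sampled 6 h after irradiation with UV-C (254 nm, 80 J/m2), and the latter were washed, irradiated without medium and then given new medium with DMSO. Whether untreated cells were washed and re-fed is not stated, so irradiation, washing and DMSO cannot be told apart in any comparison here. RNA-seq had 3 libraries per condition. FAIRE-seq, which recovers open chromatin, and ChIP-seq for H3K27ac, an acetylation of histone H3 found at active promoters and enhancers, had 2 samples per condition, pooled by the authors, and a single input DNA sample.

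RNA libraries held 14211528 to 22032701 counts. Of the 14925 genes with enough counts to test, 20.1% passed an adjusted p of 0.05 in edgeR's quasi-likelihood test, with 7.70% higher and 12.4% lower after UV. The summed level of 10 fibroblast markers ranged from 17128 to 22211 CPM (reads scaled to a common library size) before and from 21445 to 37811 CPM after irradiation. Single fibroblast markers differed in direction, with Fn1 at 2268 to 3348 and 6086 to 10830 CPM and Pdgfra at 466 to 1254 and 214 to 413 CPM. The sums of 6 epithelial and 4 endothelial markers lay at or under 9.88 CPM in every library. The sum of 6 immune markers was 9.07 to 11.0 CPM in untreated and 15.5 to 20.2 CPM in irradiated libraries, without overlap, with Cd68 at 3.96 to 4.13 and 9.77 to 11.0 CPM, and its part in the results was not tested. Within the groups, replicate 1 was the library farthest from the others (chi-square per degree of freedom over genes 35.38 to 52.07, against 5.06 and 15.19 between replicates 2 and 3). The labels do not say whether the libraries came from separate cultures, so p-values measure the spread between these libraries only. CPM is a share of a library, so less transcript per cell and fewer cells with the transcript cannot be told apart.

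At the RNA level most of the 9 genes were lower after UV, while the receptor gene Tnfrsf12a was higher. All 9 genes had enough counts to test. Tnfrsf12a rose, 6 genes fell (Fas, Tnfrsf1a, Fadd, Tradd, Ripk1 and Traf2) and 2 did not pass the test (Tnfrsf10b and Cflar). That is 11.1% higher and 66.7% lower, beside 7.70% and 12.4% of all tested genes. The median log2 fold change of the 9 was −0.85, against −0.01 over all tested genes. Without untreated replicate 2 only 3 of the 9 fell (Tnfrsf1a, Tradd and Traf2) and the median was −0.56. Falls over all genes were fewer in that fit as well, 1168 of 15587 tested genes against 1854 of 14925. Irradiated and untreated libraries did not overlap in 1 gene upwards and 6 downwards. Over all tested genes 33.9% did not overlap, 16.6% upwards and 17.3% downwards. The 6 without overlap downwards include Cflar and not Fas.

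**Figure D1:**
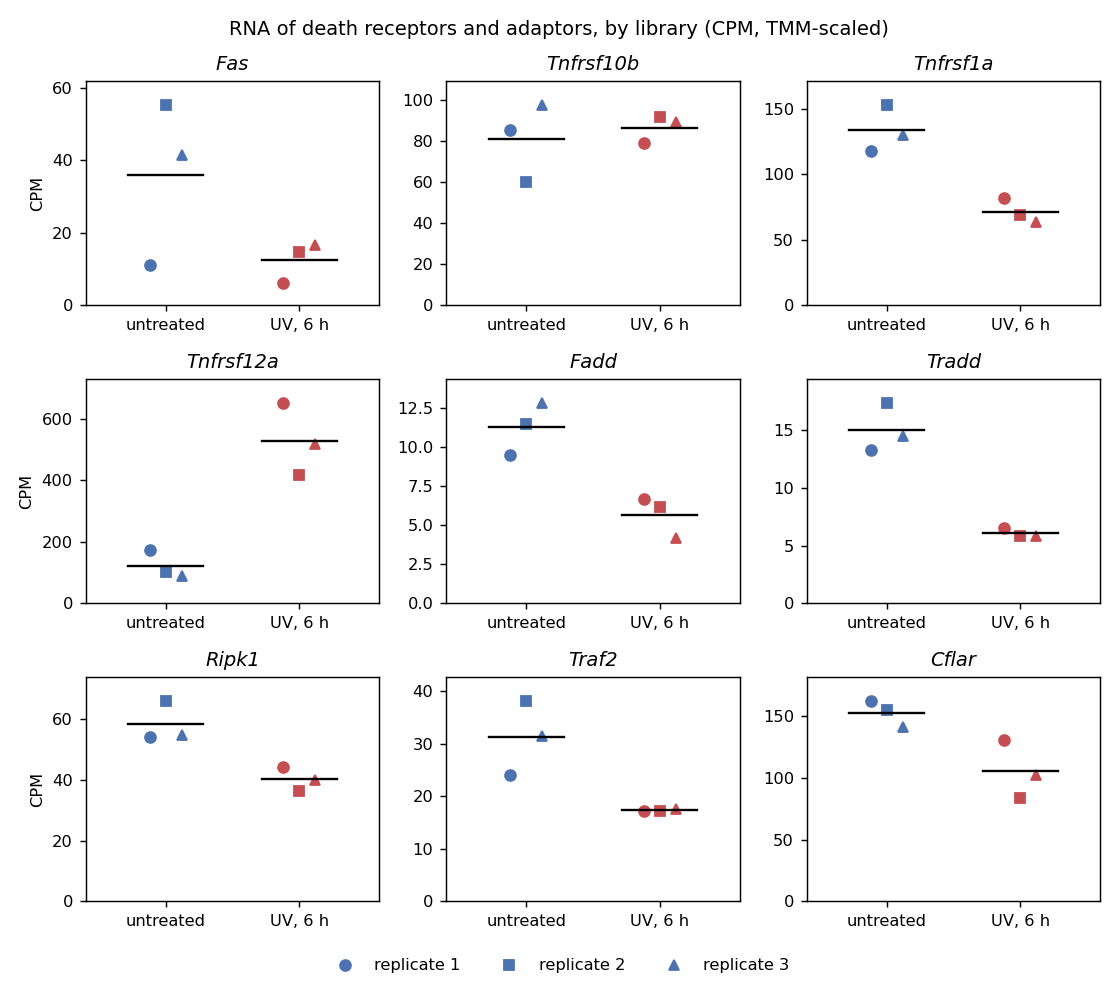
RNA level of each of the 9 genes in CPM (vertical axis, linear, from 0) in the 3 untreated (blue) and 3 irradiated (red) libraries, with marker shape for the replicate number and a black line for the group mean. Tnfrsf12a lies higher in the irradiated libraries (415 to 650.3 CPM against 88.5 to 175), and Fas overlaps between the groups because of untreated replicate 1 at 11.2 CPM.

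Fas encodes the receptor for Fas ligand, which assembles FADD and caspase-8 directly, and it is a known target gene of p53. Its level was 11.2, 55.3 and 41.5 CPM in untreated replicates 1 to 3 and 6.19, 14.6 and 16.6 CPM in irradiated replicates 1 to 3. Untreated replicate 1 lay inside the irradiated range, and the other untreated libraries lay far above it. The group means were 36.0 ± 22.5 and 12.5 ± 5.51 CPM (SD, n = 3 each), and the log2 fold change was −1.53 ± 0.41 (SE, adjusted p = 0.0113 in edgeR), the lowest of the 9. The call was lost without untreated replicate 2 (−0.94, adjusted p = 0.324) or 3 (−1.28, adjusted p = 0.168), in DESeq2 (−1.54, adjusted p = 0.122) and with library totals alone (−1.73, adjusted p = 0.0549). Fas passed in the other 9 of 13 alternatives, and its log2 fold change ran from −1.82 to −0.94 over all 13. In irradiated replicate 1 as well, Fas was lower than in the other libraries of its group.

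Tnfrsf10b encodes the TRAIL receptor of the mouse, another known p53 target that signals through FADD. It was at 85.7, 60.1 and 97.6 CPM in untreated and 79.0, 91.7 and 89.1 CPM in irradiated libraries. The groups overlapped entirely, as all irradiated values lay within the untreated range. The log2 fold change was 0.09 ± 0.20 (SE, edgeR adjusted p = 0.898), and with library totals alone it was −0.15. Without untreated replicate 1 or 3 it was 0.27 or 0.36, and it passed the test in none of the 13 alternatives.

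Tnfrsf1a encodes TNF receptor 1, which starts the TRADD and RIPK1 complex. It was at 118, 153 and 129.7 CPM in untreated and 81.6, 68.6 and 63.5 CPM in irradiated libraries, with no overlap. It fell by 0.90 ± 0.19 on the log2 scale (SE, edgeR adjusted p = 0.00243), from 133 ± 17.8 to 71.2 ± 9.36 CPM (SD, n = 3). Without irradiated replicate 3 the adjusted p was 0.0503 at a log2 fold change of −0.83.

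Tnfrsf12a encodes Fn14, the receptor for the cytokine TWEAK. It has no death domain and binds TRAF proteins, and it is known as an immediate-early gene of growth factor response in fibroblasts. Its level was 175, 103 and 88.5 CPM in untreated and 650.3, 415 and 518 CPM in irradiated libraries. The lowest irradiated library was well above the highest untreated one, and replicate 1 was the highest of each group. It rose 4.33-fold, from 122 ± 46.2 to 528 ± 118 CPM (SD, n = 3), or 2.11 ± 0.27 on the log2 scale (SE, edgeR adjusted p = 2.32e-05). It passed the test in all 13 alternatives run, with log2 fold changes of 1.87 to 2.58.

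The 4 genes for adaptors, Ripk1 included, all fell. Fadd, whose product links Fas and TRAIL receptors to caspase-8, was at 9.48, 11.5 and 12.8 CPM in untreated and 6.68, 6.20 and 4.17 CPM in irradiated libraries. It fell by 0.99 ± 0.23 on the log2 scale (SE, edgeR adjusted p = 0.00426), and every untreated library lay above every irradiated one. Without untreated replicate 2 or 3 the log2 fold changes of Fadd were −0.85 and −0.77 and the call was lost (adjusted p = 0.0526 and 0.0598). Tradd, whose product is the first adaptor at TNF receptor 1, was at 13.3, 17.3 and 14.5 CPM in untreated and 6.56, 5.86 and 5.79 CPM in irradiated libraries. The irradiated libraries lay close together and all below the untreated ones. Tradd fell by 1.31 ± 0.20 on the log2 scale (SE, edgeR adjusted p = 0.000114), and passed in all 13 alternatives (−1.54 to −1.08).

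Ripk1 encodes the kinase whose ubiquitinated form supports NF-kB signalling and whose active form can drive apoptosis or necroptosis. It was at 54.2, 65.8 and 54.5 CPM in untreated and 44.2, 36.4 and 39.8 CPM in irradiated libraries, without overlap. Its fall was small, at −0.53 ± 0.18 on the log2 scale (SE, edgeR adjusted p = 0.0390). The call was lost in 8 of 13 alternatives. These include the fits without untreated replicate 1 or 2 (−0.46 and −0.32, adjusted p = 0.0624 and 0.116), without irradiated replicate 2 or 3 (−0.47 and −0.53, adjusted p = 0.121 and 0.243) and DESeq2 (adjusted p = 0.115). Traf2 encodes the adaptor that brings the ubiquitin ligases cIAP1 and cIAP2 to the receptor. It was at 24.2, 38.2 and 31.5 CPM in untreated and 17.1, 17.2 and 17.7 CPM in irradiated libraries. The irradiated libraries were nearly identical and below all untreated ones. Traf2 fell by 0.85 ± 0.19 on the log2 scale (SE, edgeR adjusted p = 0.00319), and passed in all 13 alternatives (−1.08 to −0.56, weakest without untreated replicate 2, adjusted p = 0.0436).

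Cflar, the gene of the caspase-8 inhibitor cFLIP, was at 162, 155 and 141 CPM in untreated and 130.3, 84.0 and 102 CPM in irradiated libraries. The groups did not overlap, but irradiated replicate 1 lay close to the untreated ones. The log2 fold change was −0.53 ± 0.20 (SE, edgeR adjusted p = 0.0765). Without irradiated replicate 1 Cflar passed (−0.73, adjusted p = 0.00196), as it did with library totals alone (−0.79, adjusted p = 0.000475). Levels are compared within a gene only, because no transcript lengths were used.

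Promoter acetylation was higher after UV at Tnfrsf10b and Tnfrsf12a, and to a lesser degree at Fas and Cflar. The authors' value is the log2 enrichment of reads in a 1000 bp window over scaled input, after 16 reads are added to each, and a difference of at least 1 between the pooled conditions is called a gain or loss here. No spread between samples can be given for pooled values, and intervals cover counting error only. Of the 9 promoters 2 gained H3K27ac and none lost it, where 2.38% of all promoters gained and 3.43% lost (2.93% and 4.26% for promoters of tested genes). Tnfrsf10b gained most, from 104 to 356 reads and from 1.75 to 3.37 in log2 enrichment, a difference of 1.63. Scaled for depth, its reads were 3.39-fold higher (95% exact binomial interval 2.72 to 4.26), beside an RNA log2 fold change of 0.09. Tnfrsf12a went from 527 to 1103 reads, a difference of 1.03 and a scaled ratio of 2.08 (1.87 to 2.31). Of the 1149 genes that rose in RNA, 71 (6.18%) had such a gain.

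Fas was just short of the threshold. Its promoter held 295 reads before and 570 after UV, a difference of 0.91 and a scaled ratio of 1.92 (95% interval 1.66 to 2.21), beside the lower mean RNA level given above. Cflar went from 642 to 1017 reads, a difference of 0.64 with a ratio of 1.57 (1.42 to 1.74). The 4 genes with more acetylation thus comprised 1 that rose in RNA, 1 that fell and 2 that did not pass the test. The other 5 promoters moved little. Tnfrsf1a, the most enriched of all 9 before irradiation at 4.42, changed by 0.10, Ripk1 by 0.09, Traf2 by 0.12 and Tradd by −0.06. Fadd had the lowest difference, −0.26, with 255 reads before and 211 after (ratio 0.820, 0.680 to 0.989).

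**Figure D2:**
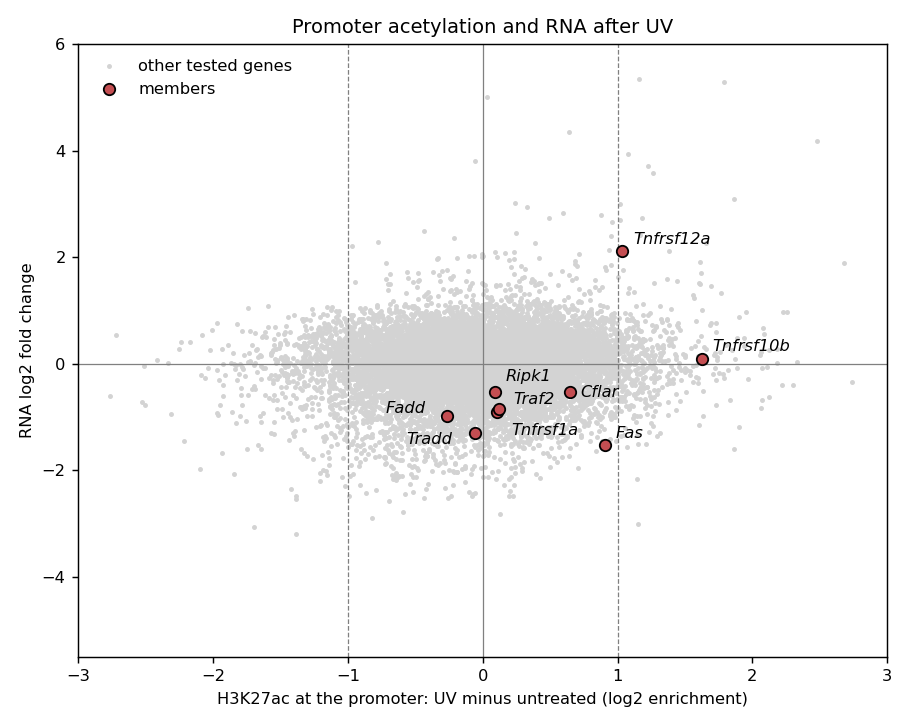
RNA log2 fold change (vertical axis) against the difference in promoter H3K27ac, UV minus untreated log2 enrichment (horizontal axis), for the tested genes (grey) and the 9 genes of the pathway (red), with dashed lines at a gain or loss of 1. Tnfrsf12a is high on both axes (1.03 and 2.11), Tnfrsf10b lies far right at an RNA value of 0.09, and Fas lies right of centre (0.91) with lower RNA (−1.53).

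In FAIRE, none of the 9 promoters passed a gain or loss of 1, where 0.00457% of all promoters gained and 1.05% lost (0.00670% and 1.39% for promoters of tested genes). The differences ran from −0.68 to 0.04, with a median of −0.13. The median was −0.17 over all promoters and −0.27 over promoters of tested genes. Traf2, the most open of the 9 before UV at a log2 enrichment of 2.02, had the lowest difference, −0.68, at percentile 8.89 of all promoters. Its reads went from 153 to 77 (scaled ratio 0.627, 95% interval 0.470 to 0.830). Cflar followed at −0.47 (81 to 46 reads, ratio 0.707, 0.482 to 1.03) and Tradd at −0.38 (43 to 24 reads, ratio 0.695, 0.404 to 1.17), with intervals that include 1. At Tnfrsf10b, the promoter with the largest gain of acetylation, FAIRE reads were 49 and 41, a ratio of 1.04 (0.671 to 1.61). At Fas and Tnfrsf12a the ratios were 1.10 (0.798 to 1.52) and 1.06 (0.783 to 1.44). For the promoters other than Traf2 no difference was detectable at these read counts.

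**Figure D3:**
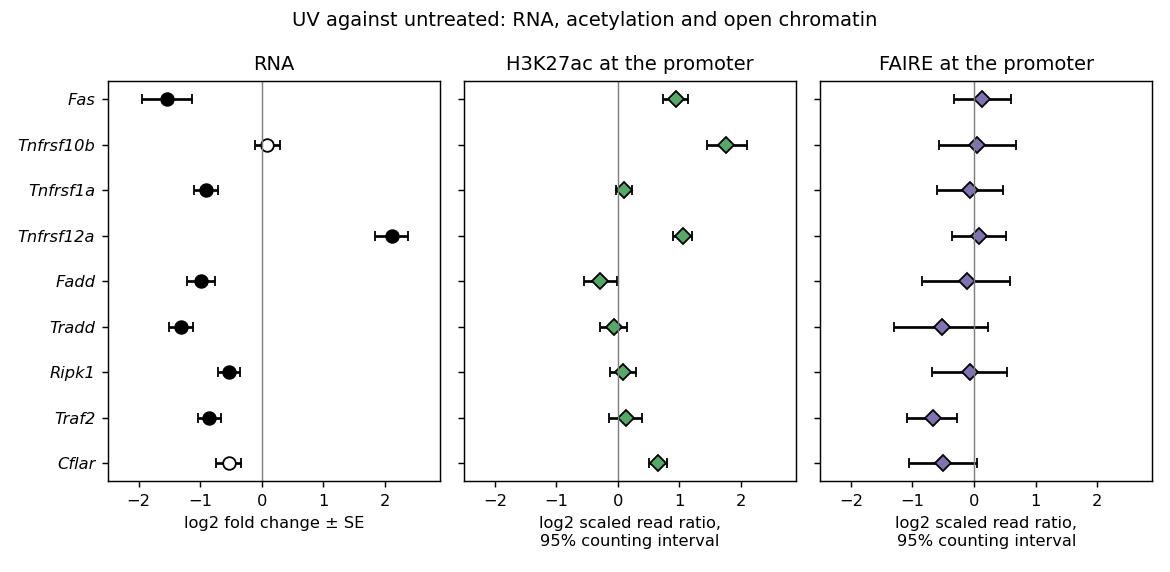
For each of the 9 genes, UV against untreated: RNA log2 fold change with its SE (left, filled where the adjusted p was under 0.05), and the log2 ratio of depth-scaled promoter reads with its 95% counting interval for H3K27ac (middle) and FAIRE (right). The acetylation interval lies wholly above 0 for Tnfrsf10b, Tnfrsf12a, Fas and Cflar, and wholly below 0 for Fadd (0.680 to 0.989 as a ratio). In FAIRE the interval of Traf2 alone (0.470 to 0.830 as a ratio) lies wholly below 0.

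Promoter sequences of 4 of these genes are shown because their chromatin or RNA moved most among those with a sequence. They are the 250 bases before the annotated start, from RefSeq on build GRCm38.p6. The authors' windows are on mm9, and where a window lies relative to the start is not given in the sources used here. RefSeq promoters were matched by symbol for 7 of the 9 genes. Capitals mark every match, on either strand, to a fixed set of motifs. Those for stress-responsive factors were the AP-1 site, spelled TGANTCA, and the cyclic AMP response element or CRE, spelled TGACGTCA, which contains its own half-site, TGACG. Those common to many promoters were the GC box bound by Sp1, spelled GGGCGG, the box bound by NF-Y, which is CCAAT, the E-box bound by factors such as Myc, spelled CACGTG, and the TATA box, searched as TATAAA. The SRF CArG box, the kB site and the p53 half-site were searched as well. Tnfrsf12a is on the minus strand at chr17:23677450-23677699, Fas on the plus strand at chr19:34290409-34290658, Cflar on the plus strand at chr1:58711241-58711490 and Traf2 on the minus strand at chr2:25546941-25547190.
Tnfrsf12a: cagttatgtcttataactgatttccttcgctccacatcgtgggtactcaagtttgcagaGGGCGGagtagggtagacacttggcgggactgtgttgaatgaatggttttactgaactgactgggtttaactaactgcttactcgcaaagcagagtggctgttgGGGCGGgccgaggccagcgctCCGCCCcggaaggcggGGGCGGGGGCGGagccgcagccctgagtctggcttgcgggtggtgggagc
Fas: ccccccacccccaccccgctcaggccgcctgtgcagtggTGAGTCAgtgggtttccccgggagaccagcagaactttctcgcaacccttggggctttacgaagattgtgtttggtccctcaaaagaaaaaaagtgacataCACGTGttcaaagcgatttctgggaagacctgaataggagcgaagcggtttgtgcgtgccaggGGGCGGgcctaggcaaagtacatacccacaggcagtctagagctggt
Cflar: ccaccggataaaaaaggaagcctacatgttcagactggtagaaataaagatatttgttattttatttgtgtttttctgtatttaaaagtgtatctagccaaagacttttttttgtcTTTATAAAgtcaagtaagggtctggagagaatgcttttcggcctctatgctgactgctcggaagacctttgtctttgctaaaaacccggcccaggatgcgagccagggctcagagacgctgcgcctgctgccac
Traf2: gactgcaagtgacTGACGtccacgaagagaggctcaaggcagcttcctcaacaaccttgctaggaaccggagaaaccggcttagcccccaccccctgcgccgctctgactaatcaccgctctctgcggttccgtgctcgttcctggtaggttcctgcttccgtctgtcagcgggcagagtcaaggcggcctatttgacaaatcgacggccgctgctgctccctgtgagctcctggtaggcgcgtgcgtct

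The window of Tnfrsf12a held 5 GC boxes, a motif found in 32.7% of 32851 RefSeq promoter windows of this length. That of Fas held 1 AP-1 match, 211 to 205 bases before the start, 1 E-box and 1 GC box, where AP-1 and E-box matches occur in 6.75% and 6.02% of all windows. Cflar held TATA box matches on both strands that overlap, 134 to 127 bases before the start (12.4% of windows). Its window is the poorest of the 4 in G and C, at 42.8% against 56.4% to 60.8% for the others. Traf2 held 1 CRE half-site (17.8% of windows). None of these 4 windows held a p53 half-site (7.13% of windows), a kB site (7.25%) or a CArG box (1.47%), which says only that these letters are not in these 250 bases.

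Other genes of the pathway were grouped into 5 lists with 79 genes, of which 75 were tested, 5 rose and 21 fell. That is 6.67% and 28.0% of those tested, beside 7.70% and 12.4% of all tested genes. Without untreated replicate 2 the falls numbered 11 and without irradiated replicate 3 they numbered 13, with 2 rises. With library totals alone 3 rose and 34 fell, beside 905 and 3739 of all 14925 tested genes. All-gene falls were 1854 of 14925 in the fit of all libraries. They were 1511 of 15604, 1168 of 15587 and 1568 of 14917 without untreated replicates 1, 2 and 3. Without irradiated replicates 1, 2 and 3 they were 2849 of 15589, 1453 of 15205 and 1139 of 15581. Of 7 tested ligand genes 1 rose and 1 fell. The rise was Tnfsf10, which encodes TRAIL, the ligand of the Tnfrsf10b product, at 9.82 ± 3.02 and 15.4 ± 1.92 CPM (log2 fold change 0.64, edgeR adjusted p = 0.0484). The call of Tnfsf10 was lost in 7 of 13 alternatives. These were the fits without untreated replicate 2 (adjusted p = 0.0677), irradiated replicate 3 (adjusted p = 0.0891) or both replicates 1 (0.28, adjusted p = 0.37), DESeq2 (adjusted p = 0.0744), library totals alone (0.38, adjusted p = 0.334) and other low-count filters (adjusted p = 0.0614 with none and 0.0522 at 1 CPM). Fasl, the ligand gene of Fas, was under 1 CPM on average in both groups.

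Among 17 other receptors of the family none rose and 2 fell, beside 7.70% and 12.4% of all tested genes. The receptors' share of falls was thus near that of all genes. Tnfrsf1b, which encodes TNF receptor 2, a receptor without a death domain, fell from 37.6 ± 2.71 to 7.45 ± 0.299 CPM (log2 fold change −2.33, edgeR adjusted p = 1.13e-07). Ltbr, the lymphotoxin beta receptor gene, fell by 0.70 on the log2 scale, and lost its call without untreated replicate 2 or irradiated replicate 3 (adjusted p = 0.0569 and 0.187). The count of falling receptors was 1 without either of these and 4 without irradiated replicate 1. All-gene falls were 1168 without untreated replicate 2, 1139 without irradiated replicate 3 and 2849 without irradiated replicate 1.

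Of 16 TRAF, ubiquitin ligase and deubiquitinase genes 1 rose and 6 fell, beside 7.70% and 12.4% of all tested genes. The median log2 fold change of the list was −0.40. Traf6 (−1.15), Traf5 (−1.17), Otulin, listed as Fam105b, which encodes a deubiquitinase of linear chains (−1.04), and Birc2, which encodes cIAP1 (−0.81), were among the falls and passed in all 13 alternatives. The rise was Rbck1 (0.61), named after its value was seen, which encodes a subunit of the linear ubiquitin ligase. Its call was lost in 3 of 13 alternatives, among them the fit without irradiated replicate 3 (adjusted p = 0.149). The falls numbered 4 without untreated replicate 2 or 3 and 9 without irradiated replicate 1. All-gene falls were 1168 and 1568 without untreated replicates 2 and 3, and 2849 without irradiated replicate 1. The median of the list was −0.217 without untreated replicate 2 and −0.263 without irradiated replicate 2.

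Of 15 kinases and regulators downstream of RIPK1 none rose and 5 fell, beside 7.70% and 12.4% of all tested genes. Their median was −0.40. Tab1, which encodes a partner of the kinase TAK1, fell from 37.3 ± 4.89 to 11.7 ± 0.460 CPM (log2 fold change −1.67, edgeR adjusted p = 4.07e-06), and Map3k14, which encodes the kinase NIK, fell by 0.94. Tbk1 (−0.62) and Azi2 (−0.54) lost their calls without untreated replicate 2 (adjusted p = 0.0721 and 0.139) and without irradiated replicate 2 or 3. Azi2 also lost it without untreated replicate 1. The list's count of 5 was 2 without any of untreated replicate 2, irradiated replicate 2 and irradiated replicate 3, and 3 without untreated replicate 1. All-gene falls in these fits, in the same order, were 1168, 1453, 1139 and 1511. The list's median was −0.261 without untreated replicate 2.

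Of 20 tested death effector, caspase and necroptosis genes 3 rose and 7 fell, beside 7.70% and 12.4% of all tested genes. Their median was −0.19. Bid, whose product carries the caspase-8 signal to mitochondria, was at −2.42, Casp6 at −1.79 and Daxx, which encodes a Fas-binding protein, at −1.04. Casp8 itself was at 53.7 ± 4.63 and 58.8 ± 6.60 CPM (log2 fold change 0.13, edgeR adjusted p = 0.779). The rises were Pidd1, listed as Lrdd, which encodes a death domain protein of the PIDDosome (6.20 ± 1.05 to 17.8 ± 9.07 CPM, log2 fold change 1.52, adjusted p = 0.00076), Pea15a (0.60) and the necroptosis kinase gene Ripk3 (0.69). Pea15a lost its call without irradiated replicate 3 (adjusted p = 0.167) and Ripk3 without untreated replicate 2 or 3 or irradiated replicate 1 (adjusted p = 0.09, 0.0916 and 0.259). Over all 13 alternatives Pea15a was not called in 4 and Ripk3 in 7. The list's median was −0.036, −0.073 and −0.075 without untreated replicates 1, 2 and 3, and −0.305 without irradiated replicate 2. The falls numbered 3 or 4 without each library except irradiated replicate 1, where they numbered 9. All-gene falls were 1139 to 1568 in the former fits and 2849 without irradiated replicate 1.

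The genes most like Tnfrsf12a and Fas over the 6 libraries, the highest and the lowest of the called members, were ranked by Pearson's r of log2 CPM. The search covered the 9624 genes whose mean was 5 CPM or more. For Tnfrsf12a they were Cdc73 (r = 0.997), Egr3 (0.995) and Nr4a1 (0.994), the latter a pair of immediate-early genes, with log2 fold changes of 1.18, 2.82 and 1.90. For Fas they were Ssbp2 (r = 0.998), Peli2 (0.997) and Map3k8 (0.996), with log2 fold changes of −0.78, −0.46 and −1.32. These values share the same 6 libraries and describe them only.

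The authors' deposited table lists genes up to an adjusted p of 0.0999 and holds 5 of the 9 genes. In the authors' deposited table the log2 fold change was 2.13 for Tnfrsf12a (adjusted p = 5.7e-12), −1.30 for Tradd (0.000661), −0.89 for Tnfrsf1a (0.0147), −0.96 for Fadd (0.0187) and −0.84 for Traf2 (0.047). The genes not listed there are Fas and Ripk1, which passed in edgeR and not in DESeq2 here, and Tnfrsf10b and Cflar, which passed in neither.

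**Figure D4:**
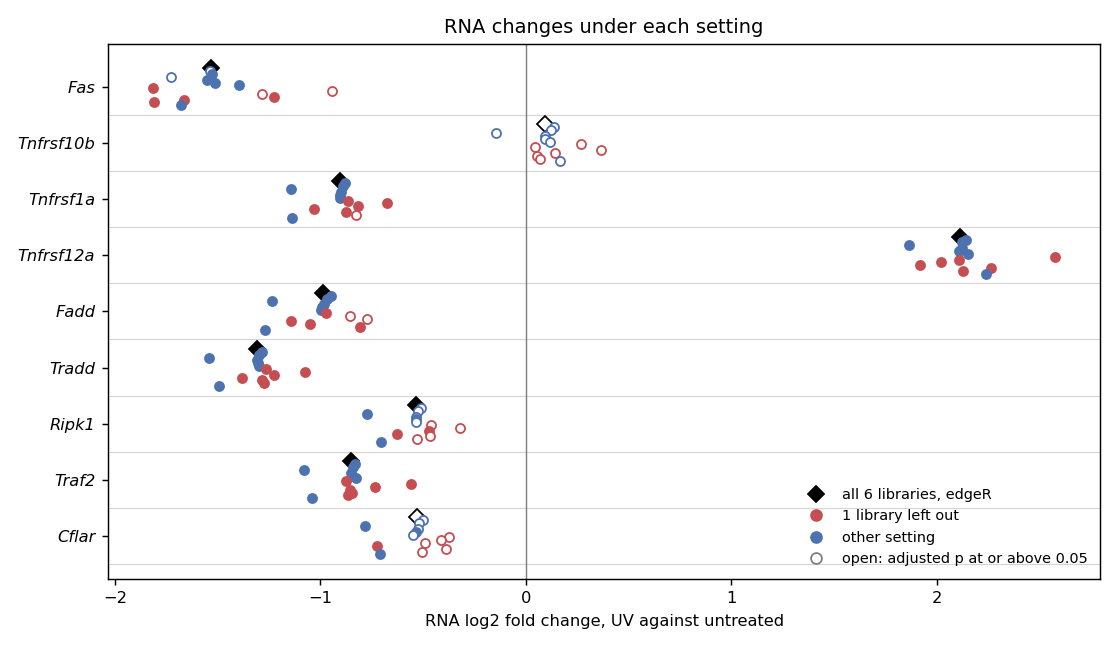
RNA log2 fold change of each of the 9 genes (horizontal axis) in the fit of all libraries (black), with 1 library left out (red) and under other settings (blue), filled where the adjusted p was under 0.05. Tnfrsf12a, Tradd and Traf2 are filled throughout, Ripk1 is open in 8 of 13 alternatives, and Tnfrsf10b is open in all and crosses 0 with library totals alone (−0.15).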

How the data were processed

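RNA-seq, FAIRE-seq and H3K27ac ChIP-seq of NIH3T3 cells were taken as deposited. Tools named by the authors, per the submitters' processing notes, are DESeq2, MACS2, TopHat and Bowtie 0.12.9, with mm9 as the build and no roles given. RNA values are whole-number read counts per gene deposited by the authors. The promoter tables hold, per the file headers, read counts pooled per condition and log2 enrichment over input, which was recomputed exactly from those counts with input scales of 0.657 and 0.528 (untreated and irradiated FAIRE) and 0.706 and 0.712 (H3K27ac). The authors' comparison table gives log2 fold changes and p-values, quoted as deposited. Headers that name DMSO were read as irradiated cells, since the labels' protocol gives DMSO to irradiated cells. Columns of another condition, 8 in number, were not used.

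Counts were fitted in R 4.3.3 with edgeR 4.0.16 (filterByExpr, TMM, glmQLFit, quasi-likelihood F test, Benjamini-Hochberg over 14925 genes, threshold 0.05). CPM used TMM-scaled library sizes, log2 CPM a prior count of 2, and the SE is the log2 fold change divided by the square root of F. DESeq2 1.42.0 was an alternative. Read ratios were scaled by the ratio of the input scales, which stands for relative depth. The edgeR script was run first on simulated data with known changes. Python 3.11.15, scipy 1.17.1 and matplotlib 3.10.9 were used for the rest. Members and lists were chosen with earlier results of these data known. By rule, all 9 members were named, and from each list up to 4 called genes by smallest p. Other list genes, such as ligands, Casp8 and single rises, were named after their values were seen. A single list gene that the rule selects is not reported here. Peaks were not placed at genes, since no gene positions on mm9 were used.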

Additional observations from a re-analysis of the deposited data

How the results depend on the processing

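Among the 9 genes, 1 rose in every alternative and 3 to 7 fell when each library was left out, against 6 in the fit of all libraries. The 3 are Tnfrsf1a, Tradd and Traf2, without untreated replicate 2. Scaling by library totals alone shifted the all-gene median from −0.01 to −0.24 and left 19.5% of calls higher, against 38.3% with TMM. Under it, 3739 genes were lower and Tnfrsf10b was at −0.15. Over all genes 585 to 1941 were higher and 1139 to 2849 lower with 1 library left out. No label says that replicate numbers pair the libraries. The correlations of deviations were 0.155, −0.58 and 0.504 for same-numbered libraries. For unlike-numbered ones they ran from −0.707 to 0.683, the highest for untreated replicate 3 with irradiated replicate 2. These values do not settle whether the libraries are paired. In a fit with a replicate block, 1276 genes were higher and 2067 lower, and 5 of the 9 genes fell, as the call of Ripk1 was lost (adjusted p = 0.0533). In the 5 lists, 2 to 6 genes rose and 11 to 30 fell with 1 library left out. In them 2 rose in DESeq2, 3 with library totals alone (34 fell), 1 without a low-count filter, and 1 with both replicates 1 left out, a setting chosen after seeing the data. All-gene rises in these settings, in the same order, were 923, 905, 791 and 819, against 1149 in the fit of all libraries.

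Counts of promoters past the threshold depended on the setting. FAIRE gains numbered 10 after centring, 638 with 1 read added, 684 without the input and 155 at a threshold of 0.58, and losses 76, 1279, 1192 and 3100. H3K27ac gains numbered 1381 with 1 read added, 1370 without the input and 1909 at 0.58, and losses 3479, 3480 and 2641. At 0.58, Fas and Cflar joined the gains, making 4 of 9, beside 1909 of all 21881 promoters. Traf2 passed a FAIRE loss at 0.58, 1 of 9, beside 3100 of all 21881 promoters. Other distances and thresholds for peaks near the genes were not run, as no positions on mm9 were used.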

Other observations

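At the promoters of the 75 tested list genes, 6 (8.0%) gained H3K27ac and 1 (1.33%) lost it by at least 1 in log2 enrichment, beside 2.93% and 4.26% of all promoters of tested genes. The 5 gains described below and the losses were named after their values were seen, and the pooled reads allow no test. Eda2r, a receptor gene of the family and a known p53 target, went from 44 to 264 reads (scaled ratio 5.95, 95% counting interval 4.31 to 8.38), with an RNA log2 fold change of −0.39 that did not pass the test (edgeR adjusted p = 0.471). Without irradiated replicate 1 the RNA value of Eda2r was −0.91 and passed (adjusted p = 2.63e-05), and without untreated replicate 1 it was 0.09 (adjusted p = 0.972). Pidd1, listed as Lrdd, went from 346 to 1087 reads (3.12, 2.76 to 3.53) and rose in RNA. Chuk, the IKK alpha gene (3.36, 2.99 to 3.77), Traf4 (2.98, 2.72 to 3.26) and Cyld, a deubiquitinase gene (2.61, 2.18 to 3.15), gained acetylation at RNA log2 fold changes of −0.19, −0.04 and 0.07 that did not pass the test.

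The loss was at Tnfsf10, the TRAIL gene, which went from 144 to 24 reads (ratio 0.165, 0.103 to 0.256). Its RNA log2 fold change was 0.64, called higher in the fit of all libraries and not called in 7 of 13 alternatives, and its receptor gene Tnfrsf10b had the largest gain among the 9 genes. In FAIRE, 2 promoters of the lists (2.67%) passed a loss and none a gain, beside 1.39% and 0.00670% of promoters of tested genes. They were Casp8 (73 to 21 reads, ratio 0.358, 0.209 to 0.589) and Tnfrsf11b, which encodes the decoy receptor osteoprotegerin (71 to 22 reads, 0.386, 0.228 to 0.630).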
